A study of Mus musculus with 12 samples.

Results

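The genes described here are 9 parts of the JAK-STAT pathway and its negative feedback in mouse cells: the feedback inhibitors Socs1, Socs2, Socs3 and Cish, the transcription factors Stat2, Stat3, Stat4 and Stat6, and the kinase Jak2. No threshold on a value entered their choice, though earlier results of these data were known when it was made, and they are the rows of both count tables whose Ensembl identifier carries one of these symbols in the GRCm38 annotation. All 9 were found among the 55487 genes of each table. RNA-seq was measured in 2 experiments on C57BL/6 mice labelled as 8 weeks old. In the first, bone marrow-derived macrophages (BMMs), grown from marrow with macrophage colony-stimulating factor, came from ovariectomized (OVX) females, which lack the main source of estrogen, or from sham-operated females, with 3 libraries each. In the second, mesenchymal stem cells (MSCs) from tibia and femur had either no partner cells (MSC) or a transwell membrane between them and RAW264.7 cells, a mouse macrophage line, which were untreated (MSC+RAW-TW) or stimulated with lipopolysaccharide, a bacterial cell wall component (MSC+RAW-LPS-TW), with 2 libraries each.

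In JAK-STAT signaling, a cytokine bound to its receptor activates receptor-bound kinases such as Jak2, and these phosphorylate STAT proteins, which pair, enter the nucleus and switch on genes. Socs1, Socs2, Socs3 and Cish are among the genes that STATs switch on, and their proteins shut the same receptors and kinases down, so that transcripts of the SOCS genes are commonly read as a trace of recent cytokine signaling. In macrophages and stromal cells the pathway carries the signals of interferons, interleukin-6, interleukin-10, interleukin-4 and interleukin-12. Transcript counts do not show phosphorylation of Jak2 or of any STAT.

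Sequences before the RefSeq starts of Socs1, Socs3 and Stat2 are shown because these genes were among those called in the comparisons below and because their windows hold letters of the kind that STAT proteins or interferon-activated complexes are known to recognise. They come from RefSeq on GRCm38.p6 and are written from 5′ to 3′ on the strand of the gene, with each motif match in capitals. The windows end 1 base before the RefSeq start for Socs1, at chr16:10785537-10785786 on the minus strand, and for Stat2, at chr10:128270248-128270497 on the plus strand. For Socs3 only an unbroken stretch of 165 bases around the match that touches no annotated exon is given, at chr11:117969452-117969616 on the minus strand. It lies before the RefSeq start but inside the Socs3 gene as GENCODE draws it, in an intron of a transcript that starts further upstream.
Socs1: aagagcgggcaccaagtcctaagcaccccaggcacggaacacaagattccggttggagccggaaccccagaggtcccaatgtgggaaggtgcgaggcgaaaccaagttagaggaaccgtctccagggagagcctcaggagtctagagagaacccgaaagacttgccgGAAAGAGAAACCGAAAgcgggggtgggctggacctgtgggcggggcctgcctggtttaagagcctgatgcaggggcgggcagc
Socs3: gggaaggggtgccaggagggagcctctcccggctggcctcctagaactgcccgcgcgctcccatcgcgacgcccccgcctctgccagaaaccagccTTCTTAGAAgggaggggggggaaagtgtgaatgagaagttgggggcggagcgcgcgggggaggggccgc
Stat2: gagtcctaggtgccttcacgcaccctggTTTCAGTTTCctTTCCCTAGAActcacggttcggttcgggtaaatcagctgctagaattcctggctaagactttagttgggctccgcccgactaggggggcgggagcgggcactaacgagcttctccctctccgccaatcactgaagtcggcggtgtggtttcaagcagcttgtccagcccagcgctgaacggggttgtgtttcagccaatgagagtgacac

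A set of 3 letter patterns were searched on both strands in the 250 bases before each RefSeq start, namely TTCNNNGAA, TTCNNNNGAA and GAAANNGAAA, whose reverse strand reads TTTCNNTTTC. Windows were held for 8 of the 9 members. TTCNNNGAA, which is found in 7.02% of the 32851 windows of all genes, matched among the members only in the Socs3 window, as TTCTTAGAA at position -154 counted from the start. GAAANNGAAA, found in 2.98% of all windows, matched in the windows of 3 members, Socs1, Stat2 and Stat4. The Socs1 window held a pair of overlapping matches at positions -83 and -77, and 0.180% of all windows held more than 1 match. TTCNNNNGAA, found in 5.85% of all windows, matched among the members only in the Stat2 window. These are matches of letters in a fixed window and no binding was measured here.

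The libraries held 17012923 to 45367105 counts. Sham replicates 2 and 3 differed by a nearly constant multiple of the sampling noise over the whole range of counts (a chi-square per gene of 2.48 times the sampling value in genes of low count and 2.81 times in genes of high count), as did the pair of MSC+RAW-TW libraries (3.11 and 3.26 times), whereas the other pairs of libraries of 1 group reached 18.5 to 120.6 times in genes of high count. Each of the near-identical pairs was therefore counted as 1 sample, which leaves 3 OVX, 2 sham, 2 MSC, 1 MSC+RAW-TW and 2 MSC+RAW-LPS-TW samples. The labels do not say that the libraries of a group came from separate animals or cultures, so p-values measure the spread between these samples, which may be technical. Macrophage genes were abundant in both experiments. Transcripts of Lyz2, the lysozyme of myeloid cells, stood at 36091 to 51842 CPM (counts scaled to library size) in the BMM libraries and at 9155 to 26636 CPM in the libraries labelled MSC, MSC+RAW-TW and MSC+RAW-LPS-TW. The 20 macrophage markers summed to 32130 to 32209 CPM in MSC, 42494 to 42907 in MSC+RAW-TW and 16810 to 17554 in MSC+RAW-LPS-TW, with none of them at 0. The 16 stromal markers summed to 2967 to 3148, 2707 to 2731 and 4410 to 4434 CPM in the same groups, less than in the BMM libraries (7675 to 8573 CPM). Single stromal markers went both ways. Thy1, a surface protein used to define MSCs, lay at 0.294 to 0.449 CPM in MSC against 52.6 to 69.2 CPM in BMMs, and the collagen gene Col1a1 at 453 to 460.0 against 1903 to 2057 CPM. Eng, another such surface protein, lay at 61.7 to 63.9 CPM in MSC against 18.4 to 30.0 CPM in BMMs, and Pdgfrb, a growth factor receptor, at 157 to 161 against 91.0 to 113 CPM. The markers thus go against the label of these libraries in part, and the values below are those of the libraries as labelled.

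In BMMs, 4 of the 9 members were called lower in OVX than in sham and none was called higher. To be called, a gene had to differ by 2-fold or more with a Benjamini-Hochberg adjusted p no greater than 0.05 in edgeR's quasi-likelihood test over all genes, a rule that called 8.46% of the 16768 genes tested, 5.39% as higher and 3.08% as lower. The members called lower were the feedback inhibitors Socs3, Cish and Socs1 and the transcription factor Stat2. Fewer cells of a type and less RNA per cell cannot be told apart in such bulk libraries.

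Socs3, which blocks receptors of the interleukin-6 family and is induced through Stat3, was the member with the highest mean level per exon length (TPM) in both BMM groups (ENSMUSG00000053113, chr11:117966079-117970047), while Stat3 had the higher CPM in OVX. In CPM, which are not scaled to gene length, Socs3 stood at 60.4, 79.97 and 98.5 CPM in OVX replicates 1 to 3 and at 236, 229 and 228 CPM in sham replicates 1 to 3. Every OVX library lay far under every sham library. The fitted level was 2.92-fold lower in OVX, a log2 fold change of -1.55 (SE 0.22, adjusted p = 0.00798).

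Socs1, the main inhibitor of interferon signaling, which binds Jak2 directly (ENSMUSG00000038037, chr16:10782240-10785536), stood at 2.89, 4.55 and 5.62 CPM in OVX and at 8.82, 11.96 and 10.99 CPM in sham. The groups did not overlap, and OVX replicate 1 was the lowest library, as it was for Socs3. Its log2 fold change was -1.22 (SE 0.31, adjusted p = 0.0377). Cish, which restrains signaling of interleukin-2 and related receptors (ENSMUSG00000032578, chr9:107296026-107302784), rested on 13 to 18 counts per OVX library and 24 to 47 per sham library. This gave 0.396, 0.471 and 0.473 CPM in OVX against 1.23, 1.52 and 1.26 CPM in sham, with a log2 fold change of -1.54 (SE 0.43, adjusted p = 0.0493). The call for Cish lies just inside the threshold. An antisense gene overlaps Cish, and as the strand setting of the counting is not stated their reads cannot be told apart. Stat3, Stat4 and Stat6 also overlap other annotated genes, and Socs1, Socs2, Socs3, Stat2 and Jak2 overlap none.

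Stat2, the partner in the complex that type I interferon forms (ENSMUSG00000040033, chr10:128270559-128292849), was the only one of the 4 STAT members to be called. It stood at 53.7, 65.4 and 68.3 CPM in OVX and at 150.3, 138 and 135 CPM in sham. The OVX libraries lay close together and well under the sham libraries, with a log2 fold change of -1.20 (SE 0.18, adjusted p = 0.00868).

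The other members missed the call. Stat3, the main carrier of interleukin-6 and interleukin-10 signals (ENSMUSG00000004040, chr11:100885098-100939540), stood at 101.0, 143 and 152 CPM in OVX and at 181, 204 and 207 CPM in sham, without overlap, with a log2 fold change of -0.56 (SE 0.22, adjusted p = 0.128). Stat6, which carries interleukin-4 and interleukin-13 signals (ENSMUSG00000002147, chr10:127642986-127660957), stood at 62.5 to 76.1 CPM in OVX and 87.4 to 108 CPM in sham (log2 fold change -0.49, SE 0.19, adjusted p = 0.120). Stat4, which carries interleukin-12 signals (ENSMUSG00000062939, chr1:51987148-52107189), overlapped between the groups, at 4.84 to 7.13 CPM in OVX and 5.13 to 7.15 CPM in sham (log2 fold change 0.03, SE 0.26, adjusted p = 0.9504). For these 3 STAT members the difference did not pass the test with 5 samples.

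A pair of members had higher levels in OVX without being called in the main comparison. Socs2, an inhibitor of growth hormone signaling (ENSMUSG00000020027, chr10:95385362-95417180), stood at 23.2, 19.1 and 18.5 CPM in OVX and at 11.1, 9.68 and 9.93 CPM in sham. Its log2 fold change of 0.95 (SE 0.21, adjusted p = 0.0241) passed the p threshold and fell short of the fold limit. Jak2, the kinase of the receptors for interferon-γ, interleukin-12 and the hematopoietic growth factors (ENSMUSG00000024789, chr19:29251828-29313080), stood at 42.5, 33.2 and 32.5 CPM in OVX and at 28.4, 23.0 and 20.1 CPM in sham (log2 fold change 0.53, SE 0.22, adjusted p = 0.144). Thus Socs2, alone of the 4 inhibitors, had its higher values in OVX.

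**Figure D1:**
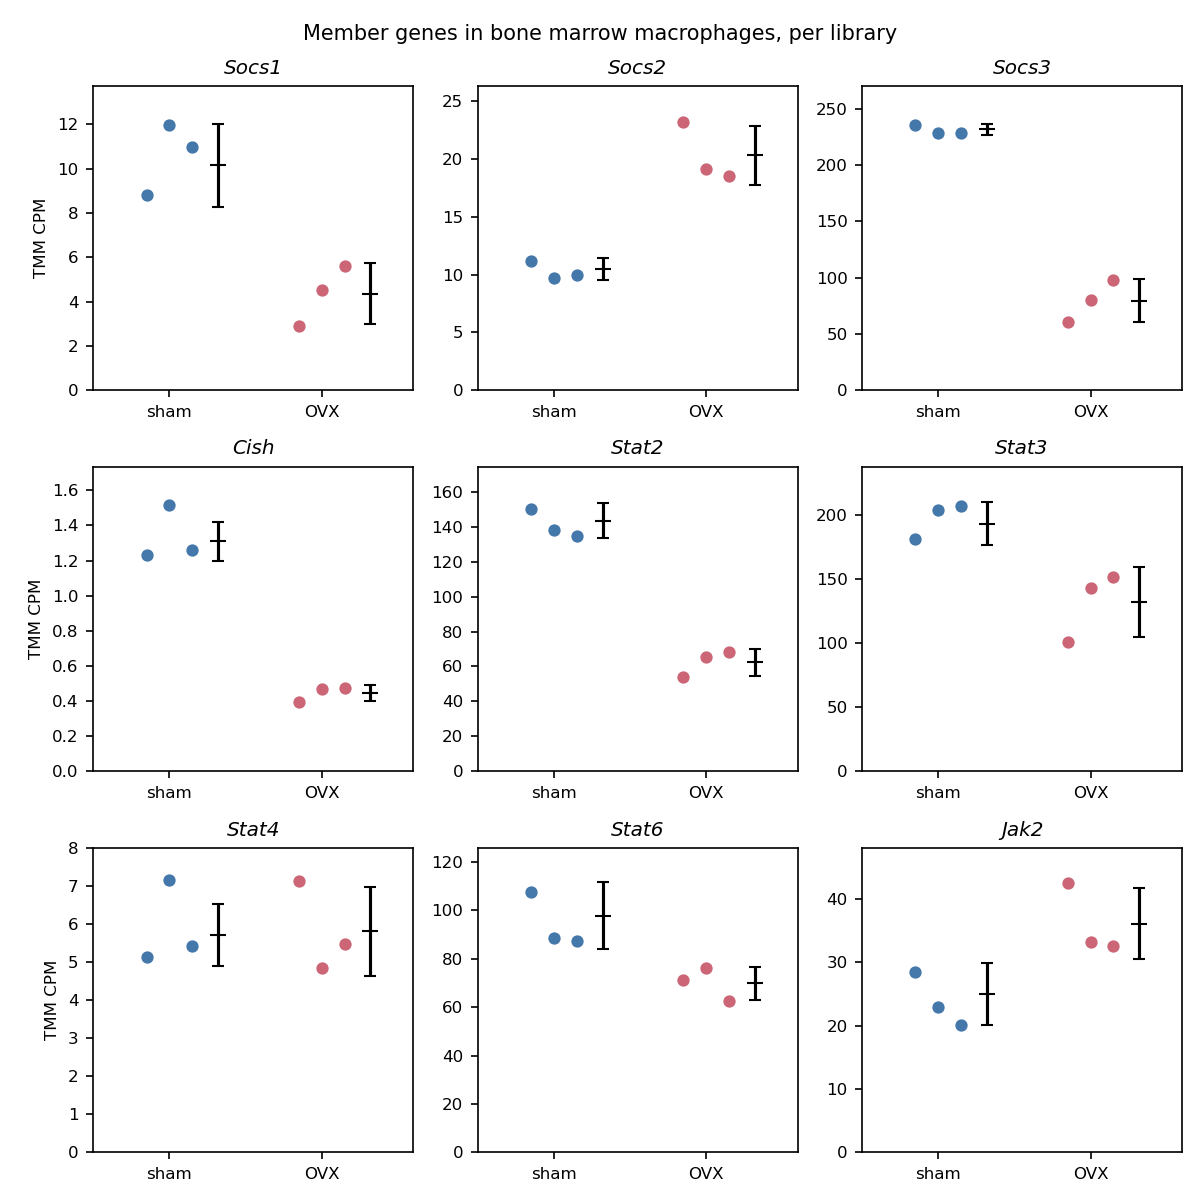
Each panel plots 1 member as TMM-normalized CPM (axis from 0) in every sham (blue) and OVX (red) library, with the mean and SD over samples (n = 2 sham, n = 3 OVX) in black beside the points. Socs3, Socs1, Cish and Stat2 lie lower in every OVX library than in any sham library, Socs2 and Jak2 lie higher, and the groups of Stat4 overlap.

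In all, 8 of the 9 members did not overlap between OVX and sham, against 42.9% of all genes tested. The median log2 fold change was -0.56 over the members and -0.01 over all genes. GC content moved with these values. It was taken from the longest annotated transcript of each gene. The 3 members of lowest GC content, Jak2, Socs2 and Stat4 at 44.3% to 45.4%, had log2 fold changes of 0.03 to 0.95. The 6 others, at 51.9% to 58.8%, had values of -1.55 to -0.49. Over all genes, deviations from the gene mean ran against GC content in the OVX libraries (Spearman rho -0.57 to -0.32 over 16751 genes) and with it in the sham libraries (0.20 to 0.48). Once the trends that each library showed along GC content and gene length were taken out, Socs3 (-1.13, adjusted p = 0.0140) and Stat2 (-1.02, adjusted p = 0.0106) were still called, and Socs1 (-0.79, adjusted p = 0.103) and Cish (-1.29, adjusted p = 0.104) were not. With all libraries also kept separate, the pair called was Socs3 (-1.08, adjusted p = 0.00336) and Cish (-1.29, adjusted p = 0.0416), and Stat2 (-0.98) fell just under the fold limit. The same removal turned the share of called genes that were higher in OVX from 63.6% to 37.3%. Summed macrophage markers also moved, at 47632 to 51615 CPM in OVX and 65313 to 70300 CPM in sham, with 5 of 20 called lower and 2 called higher. The 8 neutrophil markers summed to 1197 to 1329 CPM in OVX and 811 to 943 CPM in sham, with none called, and the 6 B cell markers to 9.97 to 10.8 and 20.82 to 23.99 CPM, with 2 called lower and no marker at 0 in either list. The 10 T and NK cell markers summed to 2.86 to 4.52 CPM in OVX and 5.89 to 7.75 CPM in sham, with none of the 6 tested called or above 0 and up to 3 at 0 in a library. Of the 5 dendritic cell markers, at 2.96 to 4.23 and 3.72 to 4.26 CPM with 1 to 3 at 0, 2 were tested and 1 was called lower. Of the 16 stromal markers, at 7890 to 8573 and 7675 to 8281 CPM, 1 was called in each direction. No endothelial or erythroid marker was called. The part of these markers in the result was not tested.

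The calls also rested on single libraries. Without OVX replicate 2, none of the 4 members was called, although the log2 fold changes of Socs3 (-1.54), Stat2 (-1.23), Socs1 (-1.25) and Cish (-1.57) hardly moved and their adjusted p lay between 0.0531 and 0.149. Without OVX replicate 1, Socs1 (-0.997, adjusted p = 0.0873) and Cish were lost, and Cish lost its call whichever of the 6 libraries was left out. Socs2 gained a call as higher without OVX replicate 3 (1.01, adjusted p = 0.0453) and without sham replicate 1 (1.04, adjusted p = 0.0239).

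Compared per base of exon, as TPM (counts divided by exon length and scaled to the library), Socs3 was the first of the members in both BMM groups and Cish the last. Socs3 stood at 67.2 ± 17.3 TPM in OVX (SD, n = 3) and 152 ± 3.51 TPM in sham (SD, n = 2), and no other member went above 48.3 TPM in any BMM library. In OVX it was followed by Stat6 (38.6 TPM), Stat3 (33.8), Stat2 (25.7) and Jak2 (17.4), in which Stat6 and Stat3, and Stat3 and Stat2, overlapped between libraries. In sham Stat2 (45.9 TPM), Stat6 (42.3) and Stat3 (38.5) followed, each overlapping with its neighbour in this order. Jak2 (9.43 TPM) and Socs1 (6.63) overlapped as well, and Stat4 (2.80), Socs2 (2.09) and Cish (0.388) followed without overlap. In OVX the low members were Socs2 (5.18 TPM), Stat4 (3.66) and Socs1 (3.65), and Socs1 overlapped with both of the others.

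**Figure D2:**
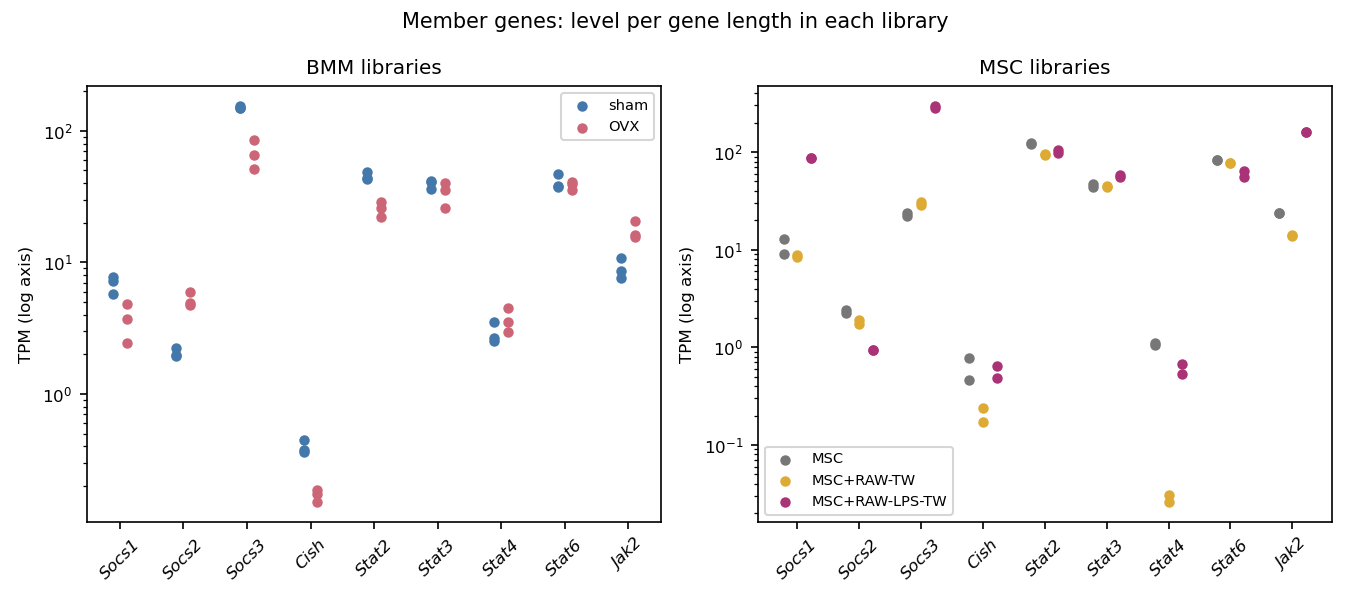
Levels per gene length, in TPM on a log axis, are plotted for the 9 members in every library, BMM libraries on the left and MSC libraries on the right, colored by group. Socs3 is the highest member in sham, OVX and MSC+RAW-LPS-TW, Stat2 is the highest in MSC and MSC+RAW-TW, and Cish or Stat4 is the lowest in each group.

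In the libraries labelled MSC, culture across the membrane from lipopolysaccharide-treated RAW264.7 cells came with a rise of Socs3, Socs1 and Jak2 over MSC alone. These 3 of 9 members were called, all higher, where the rule called 10.9% of the 20499 genes tested, 5.85% as higher and 5.09% as lower. Their folds were 16.6 for Socs3, 10.5 for Socs1 and 8.83 for Jak2. No STAT member was called. Marker lists moved too: 9 of 20 macrophage markers were called lower and 1 higher, and 4 of 16 stromal markers were called higher, with the summed levels given above, and their part in the members' values was not tested.

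Socs3 stood at 25.8 and 24.6 CPM in MSC and at 423 and 414 CPM in MSC+RAW-LPS-TW. The libraries of each group lay close together and far from those of the other, with a log2 fold change of 4.06 (SE 0.16, adjusted p = 9.23e-11). Socs1 stood at 10.4 and 13.4 CPM in MSC and at 128 and 122 CPM in MSC+RAW-LPS-TW (log2 fold change 3.40, SE 0.18, adjusted p = 1.42e-09). Jak2 stood at 47.8 and 43.2 CPM in MSC and at 418 and 386 CPM in MSC+RAW-LPS-TW (log2 fold change 3.14, SE 0.16, adjusted p = 1.14e-09). The kinase and both of its inhibitors thus stood about an order of magnitude higher in the same libraries.

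The STAT members moved little beside them. Stat3 stood at 179 and 152 CPM in MSC and at 273 and 269 CPM in MSC+RAW-LPS-TW. Its log2 fold change of 0.71 (SE 0.15, adjusted p = 0.00295) passed the p threshold and lay under the fold limit. Stat2 stood at 291 and 258 CPM in MSC and 317 and 279.6 CPM in MSC+RAW-LPS-TW, and its groups overlapped (log2 fold change 0.12, SE 0.15, adjusted p = 0.665). Stat6 overlapped too, at 144 and 131 CPM against 127 and 137 CPM (log2 fold change -0.07, SE 0.15, adjusted p = 0.823). Stat4 had 80 and 52 counts in MSC and 45 and 31 in MSC+RAW-LPS-TW, with a log2 fold change of -0.43 (SE 0.53, adjusted p = 0.648), and its groups did not overlap in CPM.

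The remaining inhibitors did not follow Socs1 and Socs3. Socs2 stood at 8.59 and 8.29 CPM in MSC and at 4.59 and 4.26 CPM in MSC+RAW-LPS-TW, and its log2 fold change of -0.93 (SE 0.24, adjusted p = 0.0113) lay just under the fold limit. Cish overlapped between the groups, at 1.18 and 1.79 CPM against 2.13 and 1.49 CPM (log2 fold change 0.29, SE 0.48, adjusted p = 0.748).

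**Figure D3:**
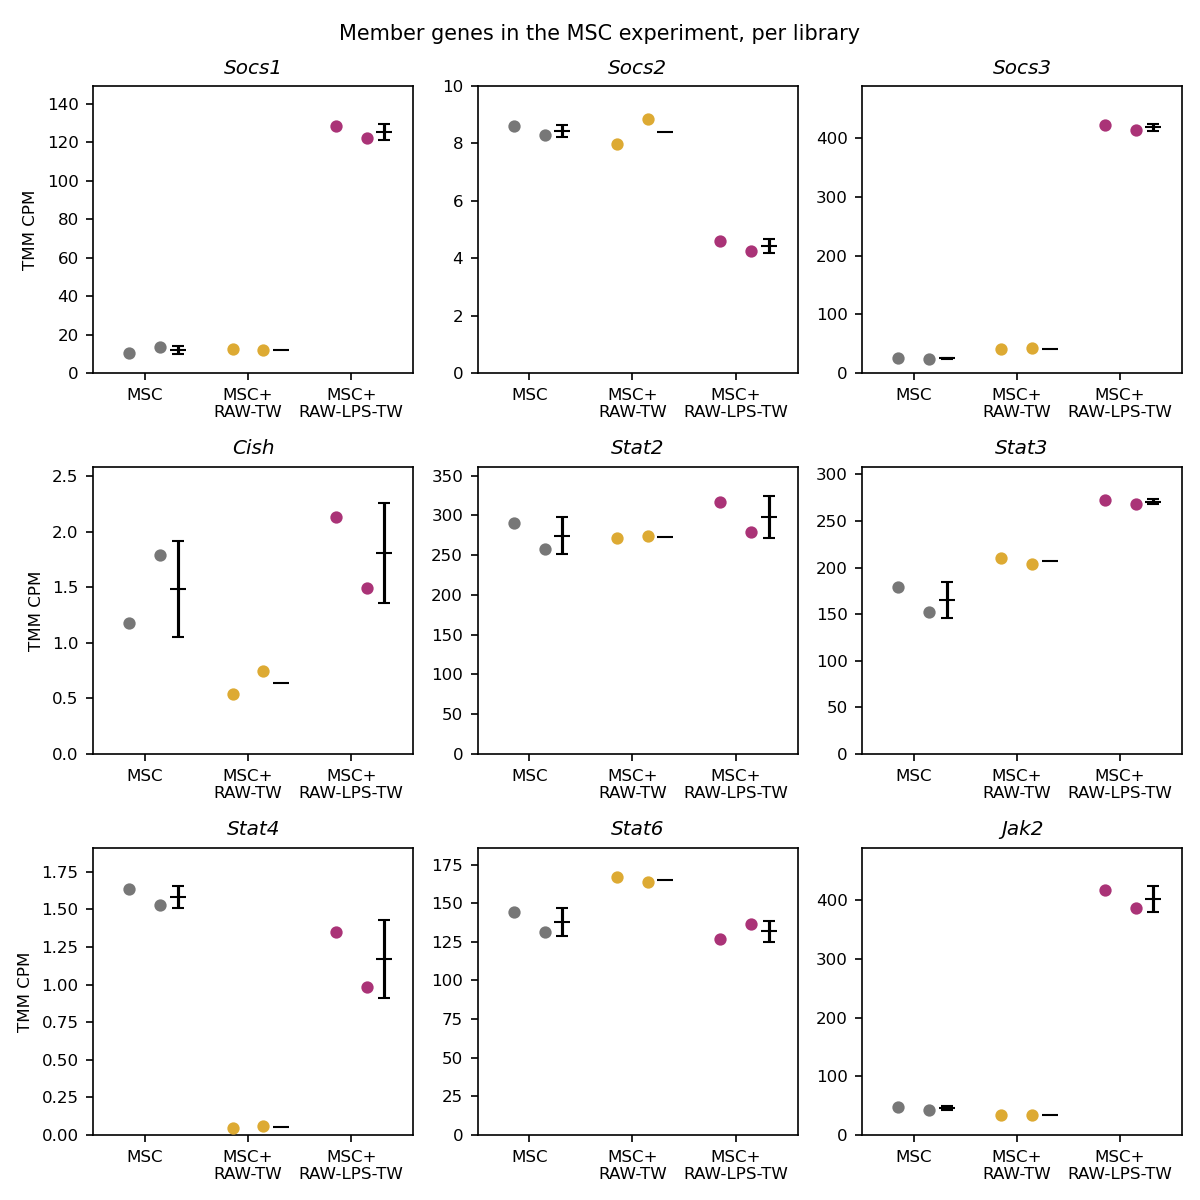
Each panel plots 1 member as TMM-normalized CPM (axis from 0) in the libraries labelled MSC (gray), MSC+RAW-TW (yellow) and MSC+RAW-LPS-TW (purple), with the mean beside the points and, where there are 2 samples, near-identical pairs counted once, the SD. Socs1, Socs3 and Jak2 are high in MSC+RAW-LPS-TW alone, Socs2 is low there, and Stat4 is close to 0 in MSC+RAW-TW.

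Against MSC+RAW-TW, the group that shares the membrane and the RAW264.7 cells but not the lipopolysaccharide, Socs1, Socs3 and Jak2 were again called higher, and Stat4 was called as well. The rule called 27.4% of all genes in this comparison, 15.4% as higher and 12% as lower, which has 1 sample on the MSC+RAW-TW side and takes its spread from the other groups. It uses the same MSC+RAW-LPS-TW libraries as the comparison with MSC, so the 2 are not independent. Socs3 stood at 40.6 and 42.7 CPM in the MSC+RAW-TW libraries (log2 fold change 3.30, SE 0.21, adjusted p = 1.85e-08). Socs1 stood at 12.4 and 11.8 CPM (log2 fold change 3.35, SE 0.24, adjusted p = 5.65e-08), and Jak2 at 34.3 and 33.9 CPM (log2 fold change 3.53, SE 0.22, adjusted p = 1.33e-08). Marker calls were more numerous than against MSC, with 10 of 20 macrophage markers lower and 4 higher, and 8 of 16 stromal markers higher and 2 lower, and their part in these values was not tested. Over all alternatives tried the values ran from 3.29 to 3.92 for Socs3, 3.32 to 3.97 for Socs1 and 3.02 to 3.596 for Jak2.

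Stat4 had 2 counts in each MSC+RAW-TW library. Its CPM in MSC+RAW-LPS-TW was 22.2 times that in MSC+RAW-TW (binomial 95% interval 8.31 to 83.5). In MSC it was 30.0 times that in MSC+RAW-TW (11.5 to 112). These intervals take each count as independent. Low counts were even too often for that in every library, so the intervals are too narrow. The gene was called in both comparisons (adjusted p = 0.00113 and 0.00135), at a level of about 1 CPM in the other groups. Cish also had its lowest values in MSC+RAW-TW, at 0.537 and 0.750 CPM from 22 and 26 counts, and was not called (log2 fold change of MSC+RAW-LPS-TW 1.48, SE 0.62, adjusted p = 0.0698). Stat3 (0.36, adjusted p = 0.139), Stat2 (0.10, adjusted p = 0.689) and Stat6 (-0.35, adjusted p = 0.125) were not called, and Socs2 stood at 7.96 and 8.86 CPM in MSC+RAW-TW (-0.95, adjusted p = 0.0143). With GC and length trends removed, Socs2 (-1.46, adjusted p = 0.000959) and Cish (1.70, adjusted p = 0.0484) passed as well. Over the 15 alternatives Cish gained a call in 6 and Socs2 in 2.

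With untreated RAW264.7 cells across the membrane, only Stat4 was called in MSC+RAW-TW against MSC, as lower, 1 of 9 members where the rule called 16.4% of all genes, 6.8% as higher and 9.59% as lower. Socs3 was higher by 0.75 on the log2 scale (SE 0.18, adjusted p = 0.00548), under the fold limit, and by 0.12 with GC and length trends removed. The values for Socs1 (0.05), Socs2 (0.02), Stat2 (0.02), Stat3 (0.35), Stat6 (0.29), Jak2 (-0.39) and Cish (-1.19) did not pass, with adjusted p of 0.129 to 0.979. With the trends removed Socs1 turned to -0.58, Jak2 to 0.10 and Stat2 to -0.092, and Socs2 went to 0.50, with adjusted p of 0.0643 to 0.734. Of the markers, 5 of 20 macrophage markers were called higher and none lower, and 3 of 16 stromal markers were called in each direction. Their part in these values was not tested. In this comparison the median of all genes lay at -0.13, and in the comparison of both transwell groups at 0.14, so that small values are to be read relative to those shifts.

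**Figure D4:**
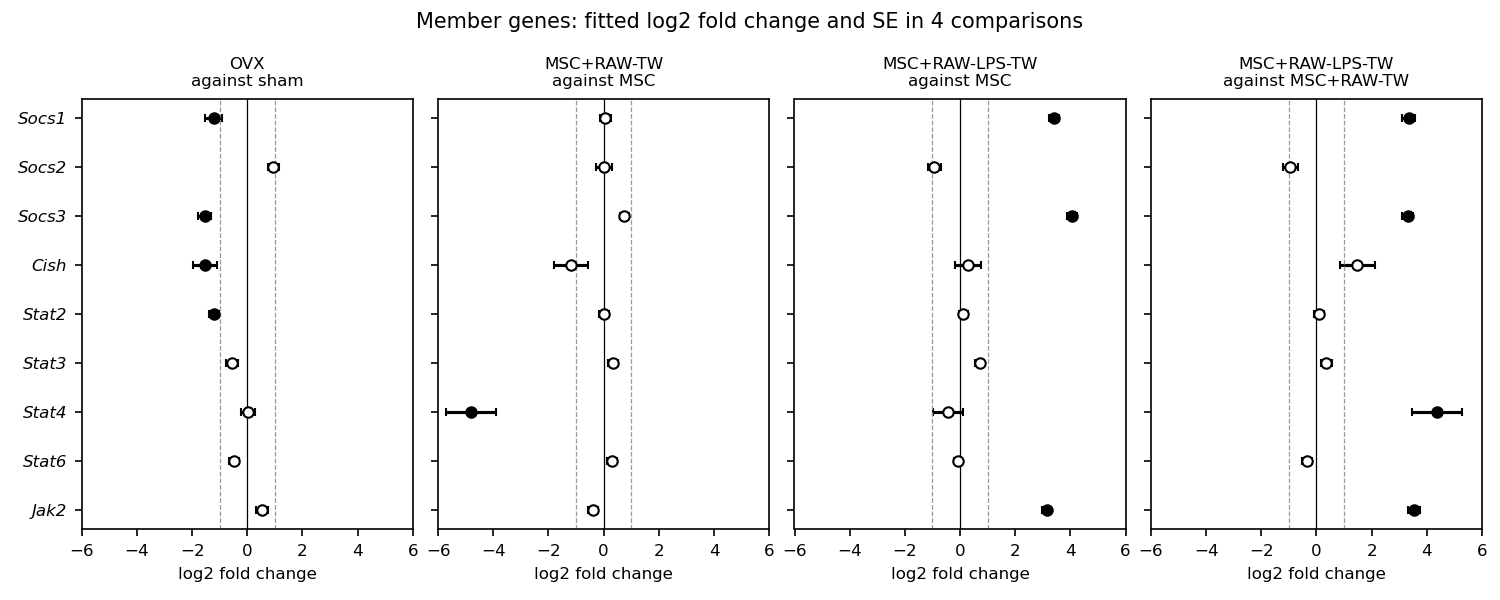
Fitted log2 fold changes with their SE are plotted for each member in the 4 comparisons, filled where the gene was called and open where it was not, with dashed lines at the fold limit of 2. Socs1 and Socs3 are called lower in OVX against sham and higher in both comparisons of MSC+RAW-LPS-TW, Jak2 is called only in the latter, and the values of Stat4 against MSC+RAW-TW rest on 2 counts in each of its libraries.

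The order of the members changed with lipopolysaccharide-treated RAW264.7 cells. In MSC the TPM ran from Stat2 (121.9 ± 1.27, SD, n = 2) through Stat6 (82.5), Stat3 (45.7), Jak2 (23.8), Socs3 (22.9) and Socs1 (10.9) to Socs2 (2.34), Stat4 (1.076) and Cish (0.619), with no overlap between neighbours. In MSC+RAW-LPS-TW, Socs3 (291 ± 8.63) and Jak2 (161 ± 1.97) came first, followed by Stat2 (101), Socs1 (86.7), Stat6 (60.3) and Stat3 (57.2), the last pair overlapping. In MSC+RAW-TW the order began with Stat2, Stat6, Stat3 and Socs3, as 94.7, 77.1, 44.7 and 29.6 TPM in 1 sample.

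Ratios between members were also taken within each library. The ratio of Socs3 to Stat3, its main inducer, was 1.84 to 2.14 in OVX and 3.63 to 4.28 in sham on the TPM scale. It was 0.474 to 0.532 in MSC, 0.636 to 0.692 in MSC+RAW-TW and 5.08 to 5.11 in MSC+RAW-LPS-TW, so that Socs3 transcripts exceeded those of Stat3 there and in all BMM libraries but not in the other MSC groups. The ratio of Socs1 to Jak2 was 0.118 to 0.299 in OVX and 0.537 to 0.948 in sham. In the MSC experiment it varied less, at 0.377 and 0.537 in MSC, 0.623 and 0.603 in MSC+RAW-TW and 0.531 and 0.548 in MSC+RAW-LPS-TW, as both genes stood higher in the last group. The ratio of Cish to Socs2 was 0.0253 to 0.0379 in OVX and 0.164 to 0.233 in sham. In the MSC experiment it was 0.205 and 0.321 in MSC, 0.100 and 0.126 in MSC+RAW-TW and 0.689 and 0.521 in MSC+RAW-LPS-TW. The OVX and sham libraries did not overlap in any of the 3 ratios, and no test was run on them. The members of a ratio can differ in GC content, as Socs1 (58.8% GC) and Jak2 (44.3%) did, and the ratios were not adjusted for it. With the trends removed, the log2 fold change in OVX went from -1.22 to -0.79 for Socs1 and from 0.53 to 0.15 for Jak2.

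**Figure D5:**
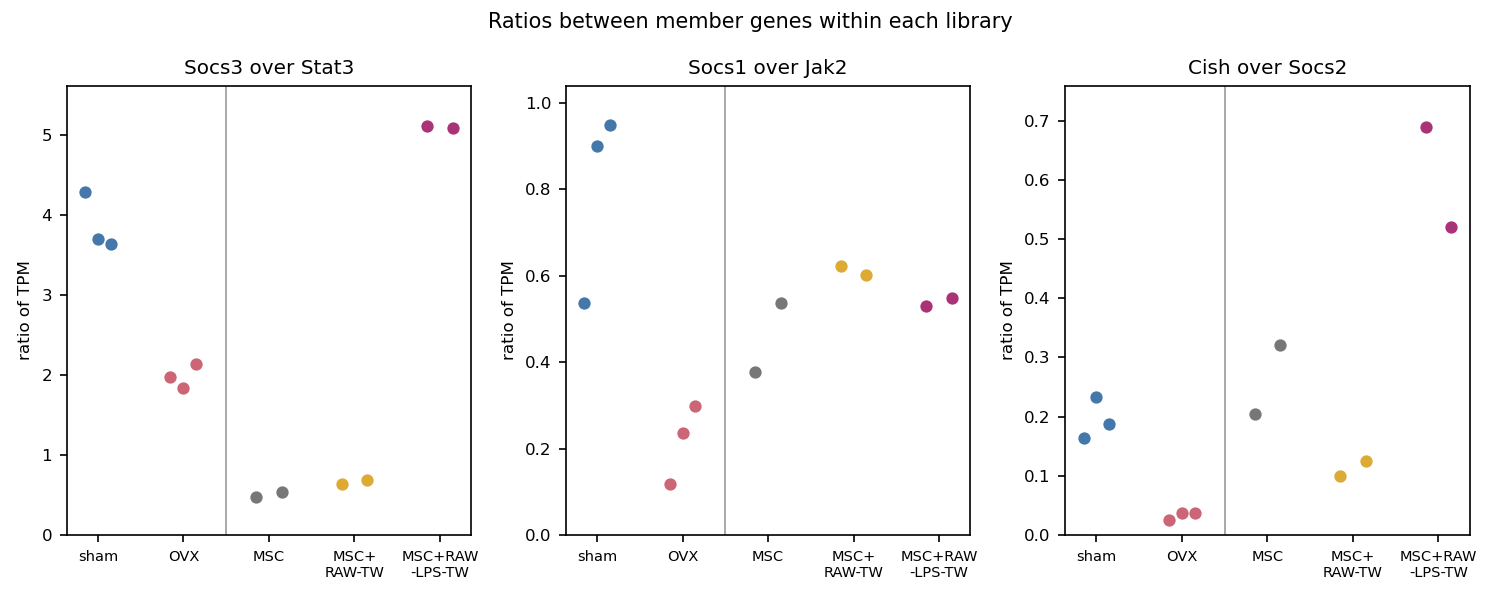
The ratio of the TPM of Socs3 to Stat3, Socs1 to Jak2 and Cish to Socs2 is plotted for every library, with the BMM groups left of the gray line and the MSC groups right of it (axes from 0). OVX libraries lie under sham libraries in all 3 panels, and MSC+RAW-LPS-TW stands apart from MSC and MSC+RAW-TW for Socs3 over Stat3 and for Cish over Socs2 but not for Socs1 over Jak2.

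Other genes of the pathway were read from lists by name. Of 20 further JAKs, STATs, SOCS genes, phosphatases and PIAS proteins, 1 was called higher and 3 lower in OVX, with a median log2 fold change of -0.40. Socs6 was called higher (1.13, SE 0.29, adjusted p = 0.0392), and the phosphatases Ptpn6 (-1.12, SE 0.18, adjusted p = 0.00952) and Ptpn1 (-1.17, SE 0.29, adjusted p = 0.0362), which remove phosphate from JAKs and STATs, were called lower. In MSC+RAW-LPS-TW against MSC 1 of the 20 was called, higher, and the median was 0.12. Against MSC+RAW-TW, Ptpn2, the T-cell protein phosphatase, was called higher (1.90, SE 0.24, adjusted p = 2.25e-05) and Pias3, an inhibitor of Stat3, lower (-1.05, SE 0.18, adjusted p = 0.000334). In MSC+RAW-TW against MSC, Pias4 was called higher (1.11) and Ptpn2 lower (-1.38).

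Among 30 receptors that signal through JAKs, 28 were tested in each experiment. In OVX, Il7r was called higher (1.94, SE 0.31, adjusted p = 0.00925) and Il4ra, the interleukin-4 receptor chain, lower (-1.20, SE 0.19, adjusted p = 0.00893). In MSC+RAW-LPS-TW against MSC, 4 were called higher and 4 lower. The former were Il13ra1 (1.499), Il15ra (1.34), the interferon receptor chain Ifnar2 (1.31) and Crlf2 (1.14), and the latter Lifr (-2.29), Il21r (-1.91), Il7r (-1.16) and Il6ra (-1.08). Against MSC+RAW-TW 7 were called higher and 5 lower, and in MSC+RAW-TW against MSC 2 each way.

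Of 22 ligands of JAK-coupled receptors, 18 were tested in the MSC experiment, and 9 were called higher and 2 lower in MSC+RAW-LPS-TW against MSC, with a median of 2.61. Il6, the cytokine that signals through Stat3, stood at 0.456 CPM in MSC, 1.76 CPM in MSC+RAW-TW and 204 ± 17.5 CPM in MSC+RAW-LPS-TW (SD, n = 2). Csf2, the growth factor GM-CSF, which signals through Jak2, stood at 0.0396 CPM in MSC, at 0 in MSC+RAW-TW and at 45.7 ± 0.936 CPM in MSC+RAW-LPS-TW. Il12a and Il12b, the subunits of interleukin-12, were at 34.7 and 3.90 CPM there and at most 0.0294 CPM on average in MSC and MSC+RAW-TW. Il4 (-1.38) and Il15 (-1.38) were called lower. In OVX 15 ligands were tested, of which Il7 was called higher (1.57, adjusted p = 0.0233) and Il10, which signals through Stat3, lower (-1.20, SE 0.17, adjusted p = 0.00779).

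Of 22 genes known to respond to STATs, 21 were tested in BMMs, and 7 were called lower and 1 higher in OVX, with a median of -0.46. Saa3, an acute-phase protein, was the furthest down (-3.51, SE 0.17, adjusted p = 0.00015), followed by Il2ra (-2.30), the kinase Pim2 (-1.92) and Bcl3 (-1.82), and Mrc1, a mannose receptor induced by interleukin-4, was higher (2.004, SE 0.22, adjusted p = 0.00453). In MSC+RAW-LPS-TW against MSC, 11 of the 20 tested were called higher and 2 lower, with a median of 1.64. The former included Lcn2 (5.81), Il2ra (5.23) and Pim2 (3.596), and the latter were Mrc1 (-7.20) and Igf1 (-3.99). Against MSC+RAW-TW the counts were also 11 and 2, and in MSC+RAW-TW against MSC 3 were called higher and none lower. The 8 neutrophil markers summed to 370 to 555 CPM in MSC+RAW-LPS-TW, 31.8 to 34.6 CPM in MSC+RAW-TW and 11.7 to 16.4 CPM in MSC. Against MSC, 2 of the 3 tested were called higher in MSC+RAW-LPS-TW. Nearly all of the sum in MSC+RAW-LPS-TW was S100a8 (341 to 515 CPM). The granule gene Camp lay at 28.7 to 39.6 CPM there against 0.470 to 0.714 CPM in MSC. S100a9, the partner of S100a8 in calprotectin, was at 0 in MSC and at most 0.0600 CPM in MSC+RAW-LPS-TW. The part of these markers in the result was not tested.

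The genes whose pattern was most like that of Socs3 were sought over the 10 samples of both experiments, near-identical pairs counted once, as the smallest root mean square difference of log2 CPM after centring within each experiment, among 16239 genes tested in both. They were Ccl4 (0.25), Mmp9 (0.28), Il10 (0.29), Socs1 (0.30) and Sod2 (0.30). Jak2 differed more (0.85) and Socs2 the most of the members (1.88). For Cish the nearest were Pgap2 (0.19), Mx1 (0.21), Gm12250 (0.25), Casz1 (0.26) and Rnf213 (0.27), and the nearest member was Stat2 (0.41). Socs1 was thus the member nearest to Socs3, and Cish lay apart from both, at 1.01 from Socs1 and 1.21 from Socs3.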

How the data were processed

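The study measured RNA-seq in 6 BMM and 6 MSC libraries, prepared as directional poly(A) libraries and read from both ends. Per the labels and methods, the authors trimmed reads with Trim Galore 0.6.7, mapped them to GRCm38 with HISAT2 2.1.0 and assigned them to Ensembl genes with featureCounts 2.0.1. What the authors deposited are raw counts, unnormalized and unfiltered, and the strand setting is not given in the sources used here. The gene lengths deposited beside the counts, in base pairs of exon, served for TPM.

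GENCODE annotation of GRCm38 named 55141 of 55487 identifiers. The members and lists were chosen with earlier results of these data known. The main test was edgeR 4.0.16 in R 4.3.3 (TMM, filterByExpr, quasi-likelihood F-test, two-sided), with near-identical pairs of libraries summed, and with 1 fit over the 3 MSC groups. Near-identical means a chi-square ratio, per gene (pair total of at least 20 counts), that grew at most 1.5-fold from low to high counts. CPM are TMM-normalized within an experiment, and levels were not compared between the experiments by test. Log2 CPM used a prior count of 2.

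Named were all members, from each list up to 4 called genes in each direction with a mean of at least 1 CPM, by fold change, and the 5 genes most like Socs3 and Cish. Some genes that meet this rule are not named. S100a8, S100a9, Camp, Lyz2, Thy1, Col1a1, Eng and Pdgfrb were named after their values were seen. Alternatives were RLE size factors, DESeq2 1.42.0, the low-count filter dropped or set to a mean CPM of 1, all libraries separate, the replicate number as a block, GC and length trends removed (lowess span 0.3), only the 2 groups compared, no fold limit, and each library left out. Blocking on a part of the column names, here called the library code, and trend removal with all libraries separate, were added after the data were seen. The library code is some digits of the name for BMMs, and the presence or absence of a suffix for MSCs. The headers do not say what either means.

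On simulated data of the OVX design, edgeR recovered 197 of 200 genes changed by 2 on the log2 scale. It made 5 false calls among 16301 genes. For the MSC design it recovered 198 of 200 with 9 false calls (18493 genes). The changed genes all lay above a CPM limit, every gene had the same dispersion, and no GC trend was simulated. The recovery therefore does not show how differences near the fold limit, or in genes of low count such as Cish and Stat4, are called. Among genes with 1 to 20 counts, 60.0% to 71.4% of counts were even in each library, so single counts may not be independent. The intervals for Stat4 take them as independent and are too narrow. Figures were drawn with matplotlib 3.10.9.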

Additional observations from a re-analysis of the deposited data

How the results depend on the processing

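Socs1, Socs3 and Jak2 were called in both comparisons of MSC+RAW-LPS-TW in all 15 alternatives that refitted the data. For OVX against sham the members called numbered 2 with GC and length trends removed (Socs3 and Stat2 with pairs summed, Socs3 and Cish with all libraries separate), and 0 to 4 with each library left out. The genes called numbered 590 and 814 with those trends removed, 309 to 2390 with each library left out, and 2193 without the fold limit. Stat4, not called, turned to -0.014 with all libraries separate, -0.25 and -0.34 with trends removed, -0.010 with the library code as a block and -0.14 to 0.16 with each library left out. Without the fold limit 4286 genes and 5 members passed for MSC+RAW-LPS-TW against MSC, and 5862 and 2 for MSC+RAW-TW against MSC. The latter had 2165 genes called with trends removed, and 2 members (Stat4 and Cish) with all libraries separate as well.

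Some values of members that were not called changed sign. Not all of them lay near 0 in the main fit, such as Jak2 at -0.39 and Stat6 at 0.29 in MSC+RAW-TW against MSC. For MSC+RAW-LPS-TW against MSC, leaving out libraries gave Stat6 -0.13 to 0.0044 and Cish -0.0085 to 0.62. For MSC+RAW-TW against MSC, all libraries separate, the library code block and only the 2 groups gave Socs2 -0.0070, -0.0071 and -0.0081, and Stat2 -0.010, -0.0065 and -0.0062. Trends removed, with pairs summed and with all libraries separate, gave Stat2 -0.092 and -0.11, Socs1 -0.58 and -0.59, and Jak2 0.10 and 0.070, with Stat6 at -9.4e-05 in the second. Leaving out libraries gave Socs1 -0.12 to 0.24, Socs2 -0.087 to 0.069 and Stat2 -0.068 to 0.11. The cause of these changes was not tested.

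Whether the replicate numbers of OVX and sham pair the samples was not settled. Correlations of deviations were 0.36, -0.012 and 0.31 for numbers 1, 2 and 3. Of 6 samples, 4 correlated best with their own number. Sham replicates 2 and 3 were near-identical, so the check could hardly tell these numbers apart. With the replicate number as a block and all libraries separate, 2117 genes and 4 members were called, and Stat4 stood at -0.013. With all libraries separate and no block, 1818 genes were called. Under the block Stat3 (-0.60, adjusted p = 0.00531), Stat6 (-0.43, adjusted p = 0.0215) and Jak2 (0.61, adjusted p = 0.00447) passed the p threshold but not the fold limit. Both fits count the near-identical sham libraries as separate samples. No paired analysis by replicate number was possible in the MSC experiment because its groups share at most 1 replicate number in the column names, where 1 stands for both libraries of MSC+RAW-TW, and 2 and 3 for those of MSC+RAW-LPS-TW. A suffix that some of those names carry, here called the library code, served as a block instead, and the headers do not say what it means.

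With 1 to 3 samples a group, the spread is poorly known, and an MSC+RAW-TW sample that is alone is assumed to vary like the others. Cish and Stat4 rest on few counts.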
